A study of Mus musculus with 12 samples.

Results

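The genes described here were 38 genes of cell death and of the p53 response, read in mouse subcortical white matter after ErbB receptor signalling was altered in cells that use the Sox10 promoter. Sox10 marks the oligodendrocyte lineage in the brain. The genes were chosen by symbol, and all 38 were found among 33864 loci of the expression table. Where a symbol stood at more than 1 locus, as it did for Casp6 and Ripk1, the locus with the highest mean over the 12 libraries was read. A further 65 genes of the same pathways were counted from separate lists.

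RNA sequencing of polyadenylated RNA gave 12 libraries in 4 groups of 3. The dnEGFR mutants carried Sox10-tTA, a tetracycline transactivator under the Sox10 promoter, together with TRE-dnEGFR, a responder for a dominant-negative epidermal growth factor receptor. Their littermate controls carried TRE-dnEGFR alone, and for both groups doxycycline began on postnatal day 21 and lasted until sampling on day 35. The ErbB2V664E mutants carried Sox10-tTA and TRE-ErbB2V664E, a responder for an activated form of the receptor ErbB2, and their littermate controls carried TRE-ErbB2V664E alone. In that line doxycycline also began on day 21, and sampling was on day 30. The sources used here do not say whether doxycycline switched the responders on or off. There was no group with Sox10-tTA alone among these libraries, so the effects of the transactivator and of the responder cannot be told apart.

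Cells die by apoptosis through an intrinsic route, in which BH3-only proteins unleash BAX and BAK1, which permeabilise mitochondria, or through an extrinsic route that starts at death receptors and caspase-8. Where caspase-8 is held back, RIPK1, RIPK3 and MLKL can instead drive necroptosis, a lytic form of death. The transcription factor p53 raises a set of target genes after DNA damage and other stress, among them Cdkn1a, which arrests the cell cycle, and Bbc3, which triggers the intrinsic route. Many steps of these pathways act on proteins, by cleavage, phosphorylation or complex formation, and are not read by RNA levels.

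Levels are given as FPKM, the fragments of a gene divided by its transcript length and by the library's mapped total. An estimated 16596882 to 24739627 fragments lay behind each library, and 1 FPKM over 2 kb of transcript stood for 33.2 to 49.5 fragments. In a piece of bulk tissue, fewer cells of a type and less RNA per cell cannot be told apart. Markers of mature oligodendrocytes summed to between 713 and 1916 FPKM in all 12 libraries. Markers of neurons, of striatal neurons and of choroid plexus were also present, and striatal markers summed to between 88.1 and 292 FPKM. Of the T cell and neutrophil markers, Cd3e, Cd3g, Cd8a and S100a8 stayed under 0.1 FPKM in all 12 libraries, and the 5 markers found summed to at most 0.570 FPKM.

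The genes spanned low to moderate levels. Cycs, which encodes cytochrome c, had the highest mean over the 12 libraries, 21.4 FPKM, and Ripk3 had the lowest, 0.0944 FPKM. In all 12 libraries 20 of the 38 genes reached 1 FPKM. The test used loci that reached 1 FPKM in at least 3 libraries, and 30 of the 38 passed. Bcl2l11, Casp6, Casp8, Fadd, Ripk1, Ripk3, Mlkl and Tnfaip3 did not. Bbc3 and Casp2 passed through libraries of the ErbB2V664E line alone.

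**Figure D1:**
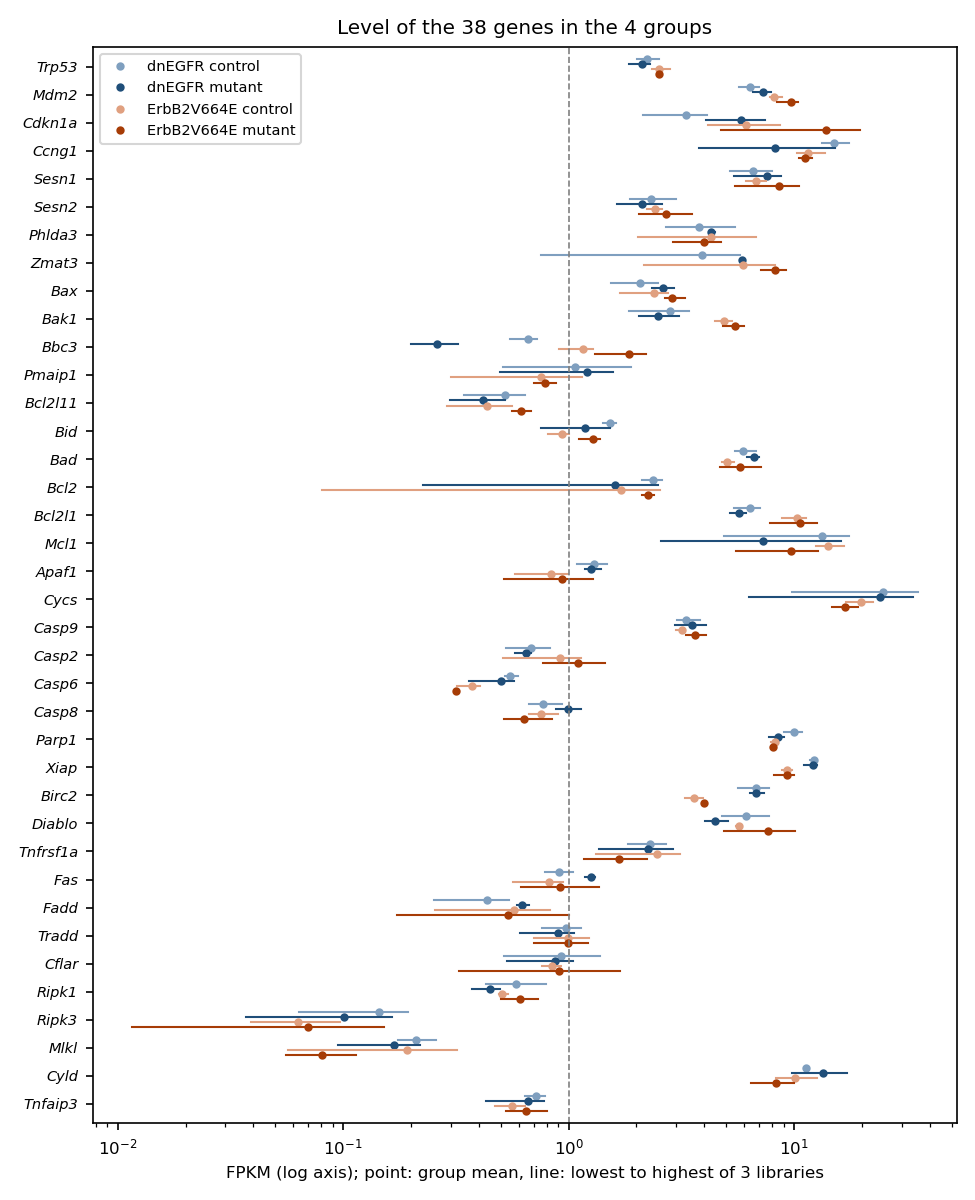
Level of each of the 38 genes in the 4 groups, in FPKM on a log axis; points are group means and lines run from the lowest to the highest of 3 libraries. The dashed line marks 1 FPKM, and Ripk3 and Mlkl lie below it in all groups.

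In the dnEGFR line, 0 of the 30 tested genes passed an adjusted p of 0.05 in limma, where 0.0942% of all 13803 tested loci did (13 loci, and 3 with the litter as a block). At an unadjusted p under 0.05 there were 3, Bbc3, Ccng1 and Parp1, all with lower values in mutants, where 5.69% of all loci passed in either direction and 2.42% were lower. Of all loci, 0.058% were called higher and 0.0362% lower. The median log2 change of the 30 genes was -0.03, beside 0.01 over all loci, and 12 of them had positive values, where the share over all loci was 51.4%. For 13 of the 30 the direction turned under at least 1 alternative.

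In the ErbB2V664E line, too, 0 of the 30 passed, where 0.275% of all tested loci did (38 loci, and 7 with the litter as a block). Only Bbc3, with higher values in mutants, had an unadjusted p under 0.05 there, where 12.1% of all loci did, 5.9% with higher and 6.24% with lower values. Adjusted calls were 0.138% of all loci in each direction. The median log2 change of the 30 genes was 0.09, beside 0.00 over all loci, and 19 of them had positive values, where the share over all loci was 50.8%. Here too 13 of the 30 turned direction under at least 1 alternative.

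The difference between the mutant effects of the lines was also called for 0 of the 30 genes by limma, where 0.116% of all loci were. Bbc3, Bid and Diablo had an unadjusted p under 0.05 for this difference, all positive, where 9.01% of all loci passed in either direction, 4.25% positive. Adjusted calls over all loci were 0.0507% positive and 0.0652% negative, and 22 of the 30 genes had positive values beside 49.5% of all loci. For 15 of the 30, Cdkn1a, Mdm2 and Zmat3 among them, the sign of the difference turned under at least 1 alternative.

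**Figure D2:**
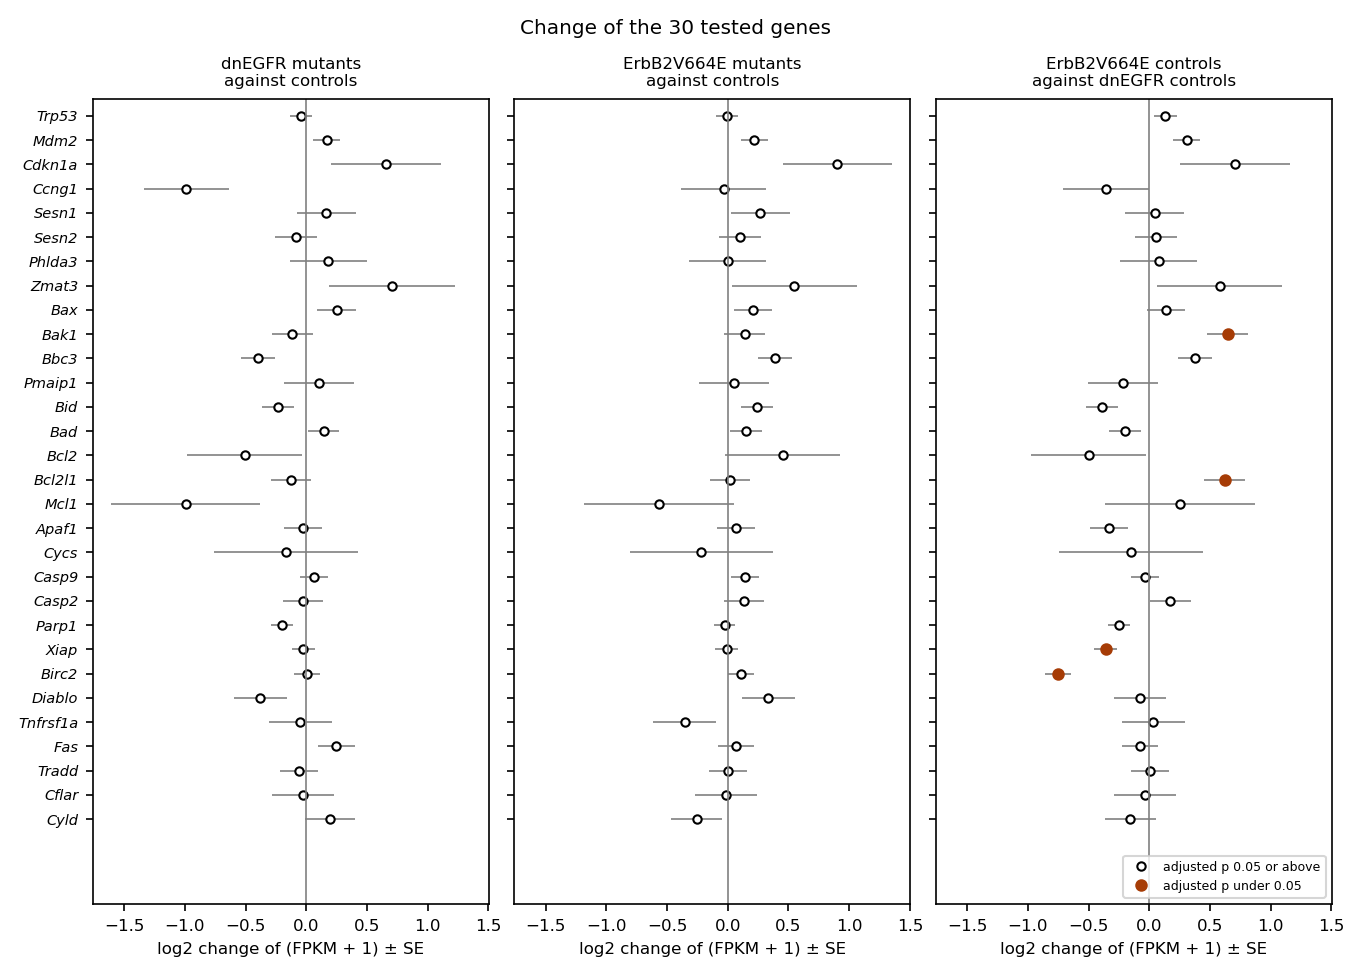
Change of the 30 tested genes on the log2(FPKM + 1) scale, with standard errors, for the mutant comparison of each line and for the controls of the lines. Filled points passed an adjusted p of 0.05, and these were 0 of 30 in both mutant comparisons and 4 of 30 between the controls.

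Trp53, which encodes p53 itself, stood at 2.00, 2.13 and 2.52 FPKM in the dnEGFR controls, at 2.29, 1.86 and 2.21 in the dnEGFR mutants, at 2.81, 2.35 and 2.42 in the ErbB2V664E controls and at 2.49, 2.52 and 2.51 in the ErbB2V664E mutants. The groups overlapped in both lines. The log2 change was -0.04 in the dnEGFR line (95% interval -0.25 to 0.16, limma adjusted p = 1) and -0.01 in the ErbB2V664E line (95% interval -0.21 to 0.20, adjusted p = 0.996). The p53 protein is controlled mainly by its breakdown, which these levels do not read.

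Mdm2 encodes the ubiquitin ligase that targets p53 for breakdown, and is itself a p53 target. It stood at 7.01, 5.72 and 6.49 FPKM in the dnEGFR controls, at 7.50, 7.91 and 6.55 in the dnEGFR mutants, at 8.83, 7.83 and 7.81 in the ErbB2V664E controls and at 8.43, 10.2 and 10.4 in the ErbB2V664E mutants. ErbB2V664E mutants 2 and 3 lay above every control of their line, and mutant 1 lay among them. The log2 change was 0.22 (SE 0.11, limma adjusted p = 0.466) in the ErbB2V664E line and 0.17 (SE 0.11, adjusted p = 0.966) in the dnEGFR line.

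Cdkn1a encodes p21, the inhibitor of cyclin-dependent kinases through which p53 arrests the cell cycle. It stood at 2.14, 3.70 and 4.13 FPKM in the dnEGFR controls, at 7.42, 5.97 and 4.09 in the dnEGFR mutants, at 4.14, 8.69 and 5.58 in the ErbB2V664E controls and at 4.76, 17.0 and 19.7 in the ErbB2V664E mutants. ErbB2V664E mutants 2 and 3 were the 2 highest of the 12 libraries, while mutant 1 lay within the range of its controls. In the dnEGFR line mutant 3 lay just below the highest control.

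The log2 change of Cdkn1a was 0.90 in the ErbB2V664E line (SE 0.45, 95% interval -0.10 to 1.91, limma adjusted p = 0.462) and 0.66 in the dnEGFR line (SE 0.45, 95% interval -0.35 to 1.67, adjusted p = 0.976). Without ErbB2V664E mutant 1, the Cdkn1a change in that line was 1.49 with an adjusted p of 0.0528. Over the alternatives run, the adjusted p of Cdkn1a in that line lay between 0.0528 and 0.784.

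ErbB2V664E mutants 2 and 3 also stood apart from mutant 1 in markers of other cells. The 5 red blood cell markers summed to 118, 32.5 and 22.1 FPKM in ErbB2V664E mutants 1, 2 and 3, beside 95.5 to 214 in their controls. The 5 choroid plexus markers summed to 638, 11.9 and 96.9, beside 246 to 569, and the 8 microglial markers to 89.0, 57.0 and 46.8, beside 86.1 to 116. The choroid plexus sum also varied widely elsewhere, at 19.4, 714 and 620 FPKM in the dnEGFR controls. Other lists did not set ErbB2V664E mutants 2 and 3 apart from mutant 1. In mutants 1, 2 and 3 neuron markers summed to 542, 597 and 571 FPKM and endothelial markers to 44.6, 48.0 and 44.0. The 8 mature oligodendrocyte markers summed to 713 to 1162 in these mutants and 1184 to 1916 in their controls. None of these markers was at 0 in all libraries of a group, and their part in the values of Cdkn1a, Mdm2 and Bbc3 was not tested.

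Promoter sequences show which of these genes carry letters of the p53 half-site near their start. The half-site is the 10-base unit that p53 binds in pairs; its consensus reads the same on both strands, and both were searched, with no other motif searched. RefSeq windows of GRCm38.p6, from 250 bases before to 50 bases after the start, matched 35 of the 38 genes with 48 windows. A half-site was found in windows of 7 genes, in 14.6% of the 48 windows, beside 8.36% of 32851 windows over all genes. For Cdkn1a, Sesn1 and Birc2 a further window of the same gene held no match. The Birc2 match began at position +11, after the start. The matches are shown with 10 bases on either side and the half-site in capitals.
Trp53: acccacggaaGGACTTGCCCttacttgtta
Mdm2: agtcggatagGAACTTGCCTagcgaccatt
Cdkn1a, first match: tcctgggtggGGACTAGCTTtctggccttc
Cdkn1a, second match: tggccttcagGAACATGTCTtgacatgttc
Ccng1: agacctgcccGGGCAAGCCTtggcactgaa
Sesn1: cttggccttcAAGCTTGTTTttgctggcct
Bax: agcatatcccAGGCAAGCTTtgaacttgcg
Birc2: cagtcaacccAGGCTAGTCTcgaatttgcg

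Cdkn1a was the only one of these genes with 2 matches, at positions -73 and -51 from the start of the same window. Its other window, chr17:29093519-29093818, held no match. The whole window with the matches, chr17:29090729-29091028 on the forward strand, is given with both half-sites in capitals.
Cdkn1a promoter: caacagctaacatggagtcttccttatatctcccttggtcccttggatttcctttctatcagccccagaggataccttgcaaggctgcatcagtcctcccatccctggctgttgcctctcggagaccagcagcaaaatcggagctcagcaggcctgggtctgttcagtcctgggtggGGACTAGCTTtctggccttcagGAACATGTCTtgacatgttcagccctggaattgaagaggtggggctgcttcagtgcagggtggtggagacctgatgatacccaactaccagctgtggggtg
The 3 windows of Bbc3 held no match, which says only that these letters are not in those windows. A match is a description of sequence and not of binding. Only full matches to the consensus were counted, so a unit with a mismatch, beside a match or elsewhere, is not marked.

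Of the 6 target genes of arrest, redox and RNA control, 4 had positive and 2 negative log2 changes in each line, and none passed the test in limma. Ccng1, which encodes cyclin G1, stood at 17.6, 14.3 and 13.3 FPKM in the dnEGFR controls, at 15.1, 5.76 and 3.79 in the dnEGFR mutants, at 10.3, 13.7 and 10.6 in the ErbB2V664E controls and at 12, 10.5 and 11.1 in the ErbB2V664E mutants. The 2 lowest of the 12 values were dnEGFR mutants 2 and 3, while dnEGFR mutant 1 lay among its controls. For Ccng1 the log2 change in the dnEGFR line was -0.99 (SE 0.35, limma adjusted p = 0.755). Without dnEGFR mutant 1 it was -1.49 with an adjusted p of 0.0130, a call that no other alternative gave. The summed level of striatal neuron markers was also higher in these mutants than in their controls, by a narrow margin for dnEGFR mutant 2. The 6 summed to 189, 106 and 292 FPKM in dnEGFR mutants 1, 2 and 3 and to 88.1 to 103 in their controls. All 6 log2 changes were positive (median 0.64), and 1 of the markers lay higher without overlap, where 5.58% of all loci did. None of the markers was called and none was at 0 in any library. Their part in the values of Ccng1, Bbc3 and Parp1 was not tested.

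Sesn1 and Sesn2 encode sestrins, which act in redox balance and nutrient signalling. Sesn1 had group means between 6.60 and 8.62 FPKM and Sesn2 between 2.11 and 2.71 FPKM. Phlda3, an inhibitor of Akt, had group means between 3.79 and 4.29 FPKM. Zmat3, an RNA-binding p53 target, varied more within groups: it stood at 5.24, 0.753 and 5.78 FPKM in the dnEGFR controls and at 7.49, 2.15 and 8.26 in the ErbB2V664E controls, with 5.77 to 9.24 in all mutants. In the dnEGFR line Zmat3 had a log2 change of 0.71 (SE 0.52, limma adjusted p = 0.987), and 0.08 without dnEGFR control 2.

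**Figure D3:**
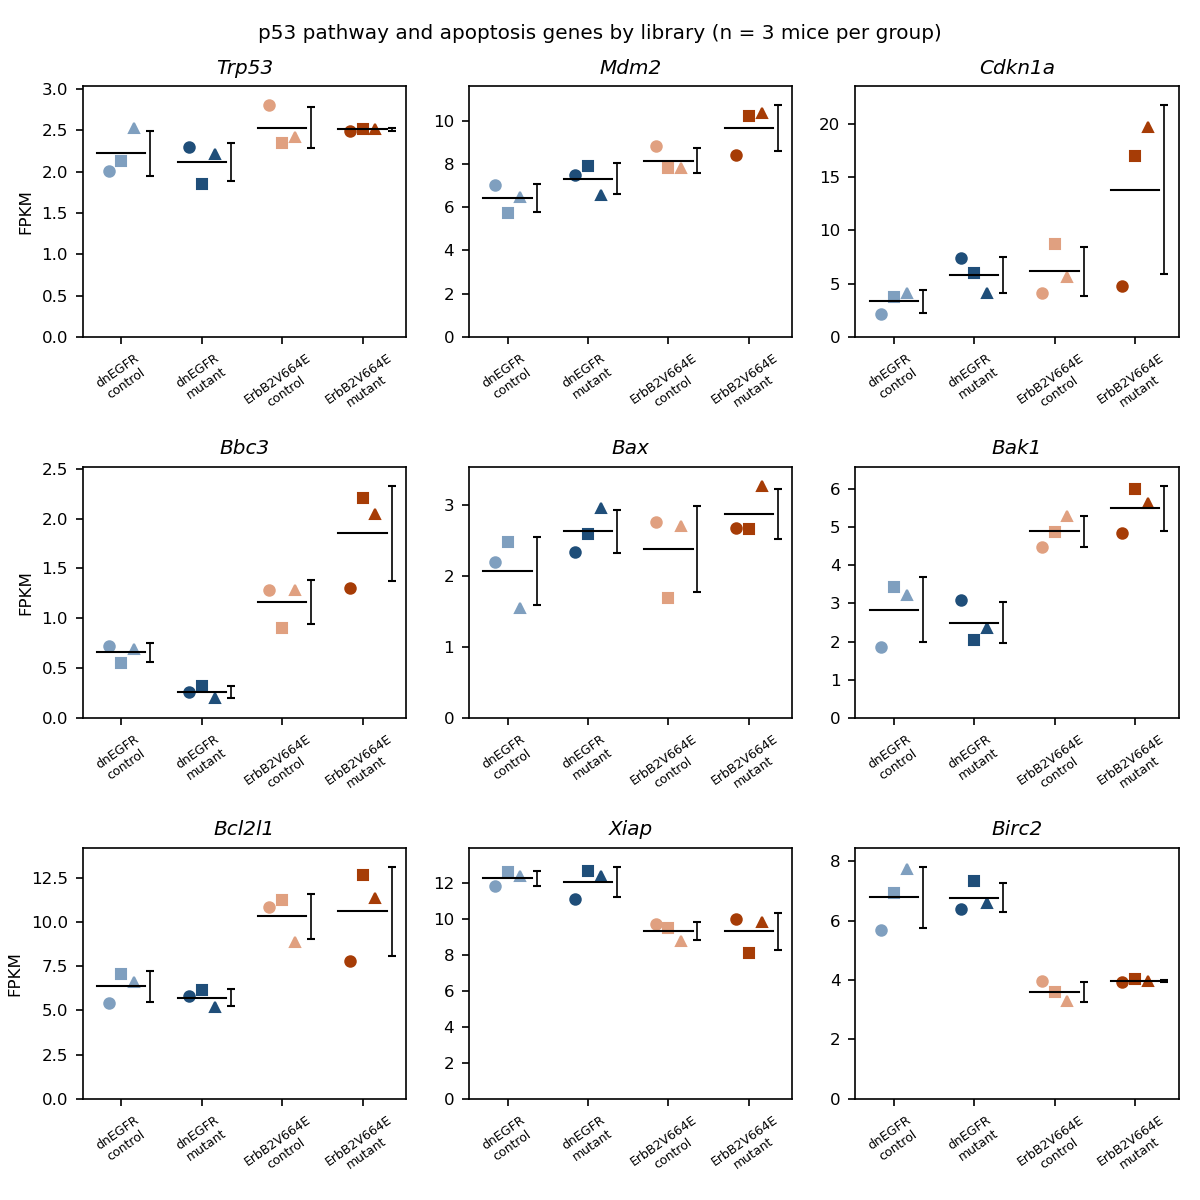
FPKM of 9 genes in every library; circles, squares and triangles are replicates 1, 2 and 3 of a group, horizontal lines group means, and bars at the right of each group the SD (n = 3). Cdkn1a is highest in ErbB2V664E mutants 2 and 3, Bbc3 is lowest in the 3 dnEGFR mutants, and Birc2 and Xiap separate the lines rather than mutants from controls.

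The BCL2 family effectors BAX and BAK1 form the pores of the mitochondrial outer membrane. The locus read for Bax joined Bax with Gm45808 and Dhdh, so its values do not belong to Bax alone. It stood at 2.19, 2.48 and 1.54 FPKM in the dnEGFR controls, at 2.34, 2.59 and 2.95 in the dnEGFR mutants, at 2.76, 1.69 and 2.70 in the ErbB2V664E controls and at 2.67, 2.67 and 3.27 in the ErbB2V664E mutants. Mutants and controls overlapped in both lines. Its log2 change was 0.25 (SE 0.16, limma adjusted p = 0.964) in the dnEGFR line and 0.21 (SE 0.16, adjusted p = 0.649) in the ErbB2V664E line.

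Bak1 stood at 1.85, 3.42 and 3.21 FPKM in the dnEGFR controls, at 3.09, 2.05 and 2.36 in the dnEGFR mutants, at 4.48, 4.88 and 5.30 in the ErbB2V664E controls and at 4.83, 6.00 and 5.64 in the ErbB2V664E mutants. All 6 libraries of the ErbB2V664E line lay above all 6 of the dnEGFR line. Its log2 change was -0.11 (SE 0.17) in the dnEGFR mutants and 0.14 (SE 0.17) in the ErbB2V664E mutants, and neither passed the test.

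Among the BH3-only genes, Bbc3 had the lowest p of the 30 tested genes in both mutant comparisons. Bbc3 encodes PUMA, a p53-induced activator of the intrinsic route. It stood at 0.724, 0.552 and 0.697 FPKM in the dnEGFR controls, at 0.261, 0.322 and 0.199 in the dnEGFR mutants, at 1.29, 0.905 and 1.29 in the ErbB2V664E controls and at 1.30, 2.21 and 2.04 in the ErbB2V664E mutants. The dnEGFR mutants all lay below, and the ErbB2V664E mutants all above, the controls of their line, the latter by a narrow margin for mutant 1. Of all tested loci, 10.1% showed no overlap in the dnEGFR line and 18.2% in the ErbB2V664E line. In the latter Bbc3, Bid and Casp9, 3 of the 30 genes, lay higher without overlap and none lower, where 9.28% of all loci lay higher and 8.96% lower.

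The log2 change of Bbc3 was -0.39 in the dnEGFR line (SE 0.14, limma adjusted p = 0.755) and 0.39 in the ErbB2V664E line (SE 0.14, adjusted p = 0.289). The difference between these effects was 0.79 (SE 0.20, 95% interval 0.34 to 1.23, adjusted p = 0.349). Bbc3 reached 1 FPKM in 2 ErbB2V664E controls and the 3 ErbB2V664E mutants only, so that it passed the filter through the group in which it was high, and its place among the tested genes is not independent of this difference. With no filter the difference was the same and its adjusted p was 0.471. These values lie near the pseudocount of 1 FPKM, which understates them: with a pseudocount of 0.1 FPKM the Bbc3 changes were -1.08 (adjusted p = 0.445) and 0.61 (adjusted p = 0.384). Over the alternatives run, the adjusted p of the difference for Bbc3 lay between 0.0660 and 0.555, the lowest without ErbB2V664E mutant 1. At the estimated depth and the length of its longest transcript, the Bbc3 values came from about 7.69 to 83.8 fragments per library.

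Bid, which links caspase-8 to mitochondria, stood at 1.62, 1.42 and 1.56 FPKM in the dnEGFR controls, at 1.26, 0.754 and 1.52 in the dnEGFR mutants, at 1.00, 0.807 and 0.994 in the ErbB2V664E controls and at 1.36, 1.11 and 1.37 in the ErbB2V664E mutants. The 3 ErbB2V664E mutants lay above their controls, and the dnEGFR groups overlapped. The log2 change of Bid was -0.23 (SE 0.13) in the dnEGFR line and 0.24 (SE 0.13) in the ErbB2V664E line, and the difference was 0.47 (SE 0.19, limma adjusted p = 0.507). Bad, a BH3-only protein held in check by survival signalling, had group means between 5.05 and 6.65 FPKM. Pmaip1, which encodes NOXA, ranged from 0.301 to 1.88 FPKM, and Bcl2l11, which encodes BIM, reached at most 0.682 FPKM.

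Of the anti-apoptotic genes, Bcl2 and Mcl1 varied over 3-fold within groups. BCL2, BCL-XL (encoded by Bcl2l1) and MCL1 bind BH3-only proteins and effectors and hold apoptosis back. Bcl2 stood at 2.12, 2.59 and 2.38 FPKM in the dnEGFR controls, at 2.09, 2.48 and 0.227 in the dnEGFR mutants, at 0.0802, 2.54 and 2.52 in the ErbB2V664E controls and at 2.40, 2.26 and 2.11 in the ErbB2V664E mutants. Apart from dnEGFR mutant 3 and ErbB2V664E control 1, all libraries lay between 2.09 and 2.59 FPKM. Bcl2 had a log2 change in the ErbB2V664E line of 0.45 (SE 0.47, limma adjusted p = 0.760), and -0.12 without ErbB2V664E control 1. In the dnEGFR line it was -0.51 (SE 0.47, adjusted p = 0.990), and -0.03 without dnEGFR mutant 3.

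Mcl1 stood at 4.88, 17.4 and 17.6 FPKM in the dnEGFR controls and at 16.1, 3.18 and 2.58 in the dnEGFR mutants, with low values in both groups. It stood at 13.3, 12.5 and 16.7 in the ErbB2V664E controls and at 5.54, 12.7 and 10.7 in the ErbB2V664E mutants. Mcl1 had a log2 change of -0.99 (SE 0.62, limma adjusted p = 0.963) in the dnEGFR line and -0.56 (SE 0.62, adjusted p = 0.768) in the ErbB2V664E line. Without dnEGFR mutant 1 the change of Mcl1 in the dnEGFR line was -1.71 with an adjusted p of 0.613, and without dnEGFR control 1 it was -1.55 with an adjusted p of 0.878.

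Bcl2l1 was more even within groups. It stood at 5.40, 7.07 and 6.63 FPKM in the dnEGFR controls, at 5.84, 6.15 and 5.20 in the dnEGFR mutants, at 10.8, 11.3 and 8.86 in the ErbB2V664E controls and at 7.81, 12.7 and 11.4 in the ErbB2V664E mutants. As with Bak1, all libraries of the ErbB2V664E line lay above those of the dnEGFR line. Its log2 change was -0.13 (SE 0.17) in the dnEGFR mutants and 0.02 (SE 0.17) in the ErbB2V664E mutants, and neither passed the test.

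Because FPKM is per length, levels of a pair of genes can be set side by side within a library. The ratio of the Bax locus to Bcl2l1 ran from 0.233 to 0.405 in the dnEGFR controls and from 0.400 to 0.567 in the dnEGFR mutants. In the ErbB2V664E line it ran from 0.150 to 0.304 in controls and from 0.210 to 0.342 in mutants. The ranges overlapped in both lines, narrowly in the dnEGFR line. The ratio of the Bax locus to Bcl2 lay between 0.648 and 1.55 in 10 libraries and reached 13.0 in dnEGFR mutant 3 and 34.4 in ErbB2V664E control 1, the 2 libraries with low Bcl2.

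Uneven values within a group occurred in all 4 groups. Of 112 combinations of a tested gene and a group in which at least 1 library reached 1 FPKM, 15 (13.4%) varied over 3-fold between the 3 libraries, beside 10.9% over all tested loci. They belonged to Cdkn1a, Ccng1, Phlda3, Zmat3, Pmaip1, Bcl2, Mcl1, Cycs and Cflar. Cycs, for example, stood at 35.4, 29.4 and 9.82 FPKM in the dnEGFR controls and at 32.6, 33.6 and 6.33 in the dnEGFR mutants.

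**Figure D4:**
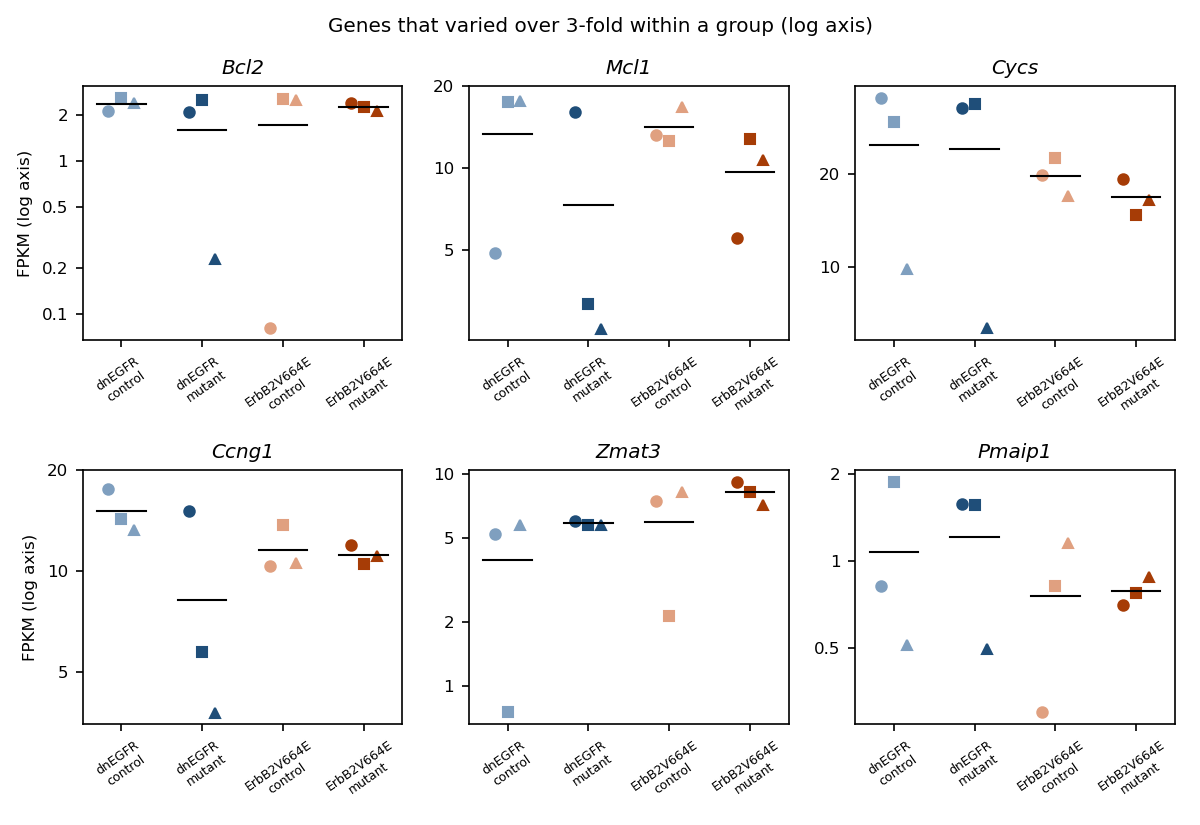
FPKM of 6 genes with over 3-fold spread within a group, on log axes; circles, squares and triangles are replicates 1, 2 and 3, and horizontal lines are group means (n = 3). Single libraries depart from their group, such as ErbB2V664E control 1 for Bcl2 at 0.0802 FPKM and dnEGFR control 2 for Zmat3 at 0.753 FPKM.

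Apoptosome and caspase genes showed no call between mutants and controls. Apaf1, the scaffold that cytochrome c activates, had group means between 0.832 and 1.30 FPKM, and Casp9, the initiator caspase it recruits, between 3.19 and 3.64 FPKM. Casp9 lay higher in all ErbB2V664E mutants (3.33 to 4.09 FPKM) than in their controls (3.00 to 3.30 FPKM), with a log2 change of 0.14 (SE 0.11, limma adjusted p = 0.662). Casp2, another initiator caspase, had group means between 0.646 and 1.10 FPKM. At the locus read, Casp6, an executioner caspase, stayed at or under 0.596 FPKM in all libraries. Summed over its 3 loci, Casp6 stood at 1.5, 0.411 and 0.696 FPKM in the ErbB2V664E controls and at 2.57, 0.908 and 2.74 in the ErbB2V664E mutants, which overlapped. The log2 change of summed Casp6 was 0.70 (SE 0.27, limma unadjusted p = 0.0295, adjusted p = 0.344) in that line and -0.07 (SE 0.27, adjusted p = 1) in the dnEGFR line. The locus read stood at 0.393, 0.404 and 0.321 FPKM in the ErbB2V664E controls and 0.327, 0.313 and 0.314 in the mutants. The higher sums thus lay in the further loci, which were at 0 in some libraries. Summed Casp6 passed the filter only with ErbB2V664E mutants 1 and 3 included, where it was high, so its change is a description.

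Parp1, a DNA repair enzyme that executioner caspases cleave, was read from a locus joined with Mir6904. It stood at 10.9, 9.94 and 9.06 FPKM in the dnEGFR controls, at 8.85, 9.02 and 7.74 in the dnEGFR mutants, at 7.88, 8.39 and 8.34 in the ErbB2V664E controls and at 7.89, 8.01 and 8.21 in the ErbB2V664E mutants. The dnEGFR mutants all lay just below their controls, and the groups of the other line overlapped. The log2 change in the dnEGFR line was -0.20 (SE 0.09, unadjusted p = 0.0455, limma adjusted p = 0.871). With Bbc3, Parp1 was 1 of 2 genes that lay lower without overlap in the dnEGFR line, where the share over all loci was 4.57%. Fas was the 1 that lay higher, where the share was 5.58%.

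Xiap and Birc2 encode inhibitor of apoptosis proteins, and Diablo encodes their mitochondrial antagonist. Xiap stood at 11.8, 12.6 and 12.4 FPKM in the dnEGFR controls, at 11.1, 12.7 and 12.4 in the dnEGFR mutants, at 9.77, 9.50 and 8.80 in the ErbB2V664E controls and at 10.0, 8.12 and 9.86 in the ErbB2V664E mutants. The mutant groups overlapped with their controls, and the ErbB2V664E line lay below the dnEGFR line throughout. The log2 change of Xiap was -0.02 (95% interval -0.24 to 0.19) in the dnEGFR mutants and -0.01 (95% interval -0.22 to 0.20) in the ErbB2V664E mutants.

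Birc2, which encodes cIAP1, a ubiquitin ligase of the TNF receptor complex, stood at 5.67, 6.93 and 7.73 FPKM in the dnEGFR controls, at 6.40, 7.33 and 6.58 in the dnEGFR mutants, at 3.96, 3.58 and 3.29 in the ErbB2V664E controls and at 3.94, 4.02 and 3.96 in the ErbB2V664E mutants. Every library of the ErbB2V664E line lay below every library of the dnEGFR line. Its log2 change was 0.01 (SE 0.11) in the dnEGFR mutants and 0.11 (SE 0.11) in the ErbB2V664E mutants.

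The locus read for Diablo joined it with Vps33a, a gene of vesicle traffic. It stood at 4.77, 5.94 and 7.73 FPKM in the dnEGFR controls, at 4.22, 5.11 and 4.01 in the dnEGFR mutants, at 5.77, 5.51 and 5.78 in the ErbB2V664E controls and at 4.92, 8.14 and 10.1 in the ErbB2V664E mutants. ErbB2V664E mutants 2 and 3 again lay highest and mutant 1 lay below its controls. The difference of the effects between lines was 0.71 (SE 0.31, unadjusted p = 0.0429, limma adjusted p = 0.544).

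Death receptors and their adaptors start the extrinsic route. Tnfrsf1a, the main receptor of TNF, stood between 1.32 and 3.11 FPKM in the controls of both lines, between 1.36 and 2.91 in the dnEGFR mutants and between 1.17 and 2.23 in the ErbB2V664E mutants. Fas, the receptor of FAS ligand and a p53 target, stood at 0.878, 1.05 and 0.788 FPKM in the dnEGFR controls and at 1.31, 1.29 and 1.18 in the dnEGFR mutants. These groups did not overlap, and the log2 change of Fas was 0.25 (SE 0.15, limma adjusted p = 0.955). In the ErbB2V664E line Fas lay between 0.566 and 0.946 FPKM in controls and between 0.613 and 1.36 in mutants.

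The adaptor Tradd had group means between 0.900 and 0.990 FPKM, and Cflar, which encodes the caspase-8 inhibitor FLIP, between 0.846 and 0.921 FPKM. Fadd, the adaptor that brings caspase-8 to death receptors, reached 1 FPKM in a single library. Casp8, the initiator caspase that also holds necroptosis back, did too: it stood at 0.669, 0.933 and 0.697 FPKM in the dnEGFR controls, at 1.13, 0.989 and 0.875 in the dnEGFR mutants, at 0.893, 0.707 and 0.671 in the ErbB2V664E controls and at 0.846, 0.534 and 0.518 in the ErbB2V664E mutants. The groups overlapped in both lines, and Casp8 was not tested because of its low level.

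All 3 genes of the necroptosis core were too low for the test. Ripk1, the kinase that starts the pathway, was read from a locus joined with Gm17084, which stood at 0.428, 0.798 and 0.535 FPKM in the dnEGFR controls, at 0.496, 0.469 and 0.374 in the dnEGFR mutants, at 0.491, 0.494 and 0.538 in the ErbB2V664E controls and at 0.598, 0.501 and 0.735 in the ErbB2V664E mutants. With both Ripk1 loci summed it passed the filter, with a log2 change of -0.11 (limma adjusted p = 1) in the dnEGFR line and 0.22 (adjusted p = 0.822) in the ErbB2V664E line.

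Ripk3, the kinase that RIPK1 engages, stood at 0.0634, 0.194 and 0.174 FPKM in the dnEGFR controls, at 0.0370, 0.165 and 0.102 in the dnEGFR mutants, at 0.0967, 0.0537 and 0.0389 in the ErbB2V664E controls and at 0.151, 0.0116 and 0.0458 in the ErbB2V664E mutants. Mlkl, which encodes the membrane-rupturing protein at the end of the pathway, stood at 0.174, 0.258 and 0.201 FPKM in the dnEGFR controls, at 0.0944, 0.190 and 0.219 in the dnEGFR mutants, at 0.199, 0.0567 and 0.321 in the ErbB2V664E controls and at 0.114, 0.0710 and 0.0558 in the ErbB2V664E mutants. Mutants and controls overlapped for both genes in both lines.

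At the estimated depth and the lengths of their longest transcripts, the Ripk3 values came from about 0.476 to 8.44 fragments per library. The Mlkl values came from about 2.17 to 13.0, so for both genes differences within that counting error were not detectable at this depth. The ratio of Mlkl to Ripk3 ran from 0.757 to 8.24 over the 12 libraries. Cyld and Tnfaip3 encode enzymes that edit ubiquitin chains in the TNF receptor complex. Cyld stood at 11.2, 11.1 and 11.5 FPKM in the dnEGFR controls, at 17.1, 9.76 and 13.3 in the dnEGFR mutants, at 12.6, 8.36 and 9.46 in the ErbB2V664E controls and at 6.46, 9.99 and 8.61 in the ErbB2V664E mutants. Its groups overlapped, and the difference of effects was -0.45 (SE 0.30, limma adjusted p = 0.688). Tnfaip3 stayed at or under 0.798 FPKM in all libraries.

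Calls among these genes lay between the controls of the lines, which differ in transgene, in age and in length of doxycycline, so that these cannot be told apart. Birc2 and Xiap fell and Bak1 and Bcl2l1 rose in the ErbB2V664E controls against the dnEGFR controls, 4 of 30 genes, where 20% of all tested loci were called, 10.9% higher and 9.12% lower. The share among these genes did not exceed that over all loci. Without overlap, 5 genes lay higher (Mdm2, Cdkn1a, Bak1, Bbc3 and Bcl2l1) and 6 lower (Bid, Bad, Apaf1, Parp1, Xiap and Birc2), where 41.4% of all loci showed no overlap, 21.6% higher and 19.8% lower. At an unadjusted p under 0.05 there were 4 genes higher and 4 lower, where 34.3% of all loci passed, 18.3% higher and 15.9% lower. Both counts of higher genes include Bbc3, which passed the filter through libraries of the ErbB2V664E line alone. The place of Bbc3 in them is therefore not independent of this difference. Positive values were 51.5% of all loci. Striatal neuron markers differed in the same comparison: the 6 summed to 146 to 255 FPKM in the ErbB2V664E controls and 88.1 to 103 in the dnEGFR controls. Each of the 6 was higher in the ErbB2V664E controls by the fitted log2 change (median 0.71), 2 were called, and none was at 0 in any library. Their part in the calls was not tested.

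The log2 change between the controls was -0.75 (SE 0.11, limma adjusted p = 0.00132) for Birc2 and -0.36 (SE 0.10, adjusted p = 0.0257) for Xiap. It was 0.64 (SE 0.17, adjusted p = 0.0253) for Bak1 and 0.62 (SE 0.17, adjusted p = 0.0268) for Bcl2l1. Birc2 was called in all 13 alternatives run, Xiap in 9, and Bak1 and Bcl2l1 in 8 each. Bid had the next lowest p, with a log2 change of -0.39 (SE 0.13, adjusted p = 0.0635). The lines also differed in Gm28661, a gene that stood between 5589 and 6563 FPKM in all 6 libraries of the ErbB2V664E line and was listed at 0 in 5 libraries and at 0.000146 in 1 of the dnEGFR line, and its part in these differences was not tested.

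Of the 65 further genes of these pathways, 49 passed the filter, and limma called 0 in either mutant comparison and 0 for the difference. At an unadjusted p under 0.05 there were 1 in the dnEGFR line, 8 in the ErbB2V664E line and 3 for the difference. The shares over all loci were 5.69%, 12.1% and 9.01%. Of the 8, 6 were higher and 2 lower, where 5.9% of all loci were higher and 6.24% lower. The 1 and the 3 were all positive, where 3.27% and 4.25% of all loci were. In the dnEGFR line, genes with the lowest p-values in the 3 lists included Mdm4 (log2 change -0.64, adjusted p = 0.952), a partner of MDM2, and Perp (0.21, adjusted p = 0.953), then Htra2 (0.14, adjusted p = 0.987), and also Tab2 (0.33, adjusted p = 0.811) and Sharpin (0.24, adjusted p = 0.918).

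In the ErbB2V664E line the genes with the lowest p in the p53 list encode DNA damage sensors. Ddb2 had a mean of 3.31 ± 0.40 FPKM (SD, n = 3) in controls and 5.01 ± 0.35 in mutants, with a log2 change of 0.48 (limma adjusted p = 0.128). Xpc averaged 2.59 ± 0.41 FPKM in the controls and 3.47 ± 0.67 in the mutants, a log2 change of 0.31 (adjusted p = 0.314). Dffb, a nuclease of apoptotic DNA breakdown, had a log2 change of 0.40 (adjusted p = 0.143), and Bcl2l2, an anti-apoptotic relative of Bcl2, of 0.52 (adjusted p = 0.161). Tab1 (0.49, adjusted p = 0.462) and Chuk (-0.31, adjusted p = 0.469), of the kinase branch below TNF receptors, had the lowest p of the third list. Between the controls, where 20% of all tested loci were called (10.9% higher and 9.12% lower), 2 of the 49 rose in the ErbB2V664E line, Plk3 (0.65, adjusted p = 0.0335) and Nfkbia (0.87, adjusted p = 0.0372). There 5 fell: Mdm4 (-1.27, adjusted p = 0.0358), Ddb2 (-0.47, adjusted p = 0.0163), Htra2 (-0.45, adjusted p = 0.0166), Bnip3 (-0.58, adjusted p = 0.00968) and Chuk (-1.20, adjusted p = 0.000956).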

How the data were processed

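FPKM values were computed by the authors, with HISAT and StringTie per the submitters' processing notes (no versions), and deposited as 1 table of all 12 libraries. No source used here gives the genome build, annotation or options. The protocol in the labels names no strand step, so overlapping genes cannot be told apart. Each value was taken as log2(FPKM + 1), kept where at least 3 libraries reached 1 FPKM (13803 loci), and tested with limma 3.58.1 in R 4.3.3 (two-sided, variance trend in the empirical Bayes step), with all 12 libraries and 1 mean per group. Benjamini-Hochberg adjustment ran over all tested loci, and the threshold was 0.05. A change on this scale understates that of low genes. There were 8 residual degrees of freedom, and p-values reflect the spread between libraries. Whether loci were assembled evenly over the libraries was not tested.

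The descriptions name a littermate control for each mutant, so same-numbered libraries come from 1 litter and are paired; each was taken as a separate mouse. Correlations of deviations from the group means within the 6 pairs were 0.0162, 0.0089, 0.0326, -0.0036, 0.0099 and -0.0253. The litter was used as a block in an alternative.

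Members and lists were chosen with earlier results of these data known. Values in every library are given for genes called in any comparison, for the 5 with the lowest p in each comparison, and for Trp53, Cdkn1a, Mdm2, Bax, Bcl2, Casp8, Ripk1, Ripk3 and Mlkl. Of the further pathway genes, those called are named, and the 2 with the lowest p per list and mutant comparison, except 1 that is not reported here. Fragments were estimated from steps of the lowest FPKM values with GENCODE M21 lengths. Those of a named gene used the longest transcript of its locus and are upper estimates. The test was tried on simulated data first. Tables were made with pandas 2.3.3 and numpy 2.4.6 in Python 3.11.15, and figures with matplotlib 3.10.9. Promoters came from RefSeq, and those of Pmaip1, Tradd and Zmat3 were not used here.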

Additional observations from a re-analysis of the deposited data

Results flagged for a closer look

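Bbc3 is given here because its mutant effects pointed in opposite directions in the lines: every dnEGFR mutant lay below its controls and every ErbB2V664E mutant above. The difference between the effects was 0.79 on the log2(FPKM + 1) scale (SE 0.20), with an adjusted p of 0.349 in limma. Bbc3 was picked by this same difference, and it passed the filter only through libraries of the ErbB2V664E line, where it was high, so the value is a description. Its lowest library rested on about 7.69 estimated fragments.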

How the results depend on the processing

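Of 1740 values of these genes under the alternatives, 14 lost and 5 gained a call, and no called value changed sign. Of all values, called or not, 25 of 405 changed sign in the dnEGFR comparison and 29 of 405 in the ErbB2V664E comparison. So did 50 of 555 for the difference and 25 of 375 between controls. With the replicate block for litter, the loci called were 3 in the dnEGFR comparison, 7 in the ErbB2V664E comparison and 4 for the difference, instead of 13, 38 and 16, and none of the 30 genes was called. No paired analysis was possible for the controls because each litter belongs to 1 line. With a filter of 5 FPKM the calls were 7 (ErbB2V664E), 7 (difference) and 1766 instead of 2761 (controls). With only the groups compared they were 22 (dnEGFR) and 23 (ErbB2V664E). Without a filter, 2 of the 30 genes were called between controls instead of 4. With the filter of 5 FPKM, with library medians equalised and with quantile normalization, 5 were called there. Between controls Parp1 was called in 3 of 13 alternatives and Bid in 1, though neither was called in the main fit.

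Leaving out 1 library at a time gave 17 to 36 loci called in the dnEGFR comparison, 16 to 262 in the ErbB2V664E comparison (262 without mutant 1), 15 to 42 for the difference and 1810 to 2152 between controls. Among the 30 genes it gave 0 to 1 in the dnEGFR comparison (Ccng1, without mutant 1), 0 in the ErbB2V664E comparison and for the difference, and 1 to 3 between controls. The causes were not tested. Equalising library medians or quantiles left the count of these genes called at 0 in both mutant comparisons. Values under 1 FPKM limit what can be said of Ripk1, Ripk3, Mlkl, Casp6, Casp8, Fadd, Bcl2l11 and Tnfaip3.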
